A study of Mus musculus with 6 samples.

Results

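A set of 10 genes of muscle development was followed in mouse tumours with and without Kindlin-1: the satellite cell gene Pax7, the 4 myogenic regulatory factors Myf5, Myod1, Myog and Myf6, the MEF2 factor Mef2c, the embryonic and perinatal myosin heavy chains Myh3 and Myh8, and the acetylcholine receptor subunits Chrna1 and Chrng. They were taken by gene name from the 37991 genes listed by the roles they are known for, with no threshold on measured values. Of these, 8 of the 10 had at least 1 read and 2 had none in any library.

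The study compared Kindlin-1 Null tumours (3 libraries), in which the gene for Kindlin-1 had been knocked out, with Kindlin-1 WT tumours (3 libraries). All 6 tumours came from a cutaneous squamous cell carcinoma (cSCC) line, a cancer of skin keratinocytes, and total RNA of the whole tumour was sequenced. The strain, sex and age of the mice, the host, and whether the null line is 1 clone were not given in the sources used here. By title, Null libraries 2 and 3 share a mouse number, as do WT libraries 1 and 2, each with the letter L or R. The number in the file name of Null library 3 is a different one. Libraries may therefore not be separate animals, and a p-value here reflects no more than the spread among these 6 libraries, which may be technical.

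Skeletal muscle forms when precursor cells marked by Pax7 switch on Myf5 and Myod1, which encode basic helix-loop-helix factors that bind E-box sequences in muscle gene promoters. Myog and Myf6 then act in differentiation and in the fibre, together with MEF2 factors. Myh3, Myh8 and Chrng are used in developing and regenerating fibres and are replaced by adult myosins and by the receptor subunit encoded by Chrne, while Chrna1 is used at both stages. Myogenin and its relatives are known to act on receptor subunit promoters.

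The promoters of 3 members are shown because Myog encodes a factor that binds E-boxes and Chrna1 and Chrng are receptor genes with CAGCTG E-boxes near their start. They are RefSeq sequences of the GRCm38.p6 build, 250 bases before to 50 after the annotated start, and capitals mark each match to CANNTG, which reads the same on both strands.
Myog, chr1:134289754-134290053, plus strand: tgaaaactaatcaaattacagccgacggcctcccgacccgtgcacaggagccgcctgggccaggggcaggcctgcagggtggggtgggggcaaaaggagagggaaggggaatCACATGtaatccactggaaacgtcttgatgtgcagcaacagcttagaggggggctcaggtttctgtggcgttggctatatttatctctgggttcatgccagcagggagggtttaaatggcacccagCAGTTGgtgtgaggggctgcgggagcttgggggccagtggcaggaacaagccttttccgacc
Chrna1, chr2:73580289-73580588, minus strand: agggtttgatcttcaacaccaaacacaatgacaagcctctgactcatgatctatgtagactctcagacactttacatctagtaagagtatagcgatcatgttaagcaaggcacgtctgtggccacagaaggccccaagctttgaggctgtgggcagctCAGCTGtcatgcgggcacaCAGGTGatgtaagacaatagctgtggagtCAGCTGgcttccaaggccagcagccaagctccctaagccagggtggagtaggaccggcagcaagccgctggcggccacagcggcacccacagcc
Chrng, chr1:87205561-87205860, plus strand: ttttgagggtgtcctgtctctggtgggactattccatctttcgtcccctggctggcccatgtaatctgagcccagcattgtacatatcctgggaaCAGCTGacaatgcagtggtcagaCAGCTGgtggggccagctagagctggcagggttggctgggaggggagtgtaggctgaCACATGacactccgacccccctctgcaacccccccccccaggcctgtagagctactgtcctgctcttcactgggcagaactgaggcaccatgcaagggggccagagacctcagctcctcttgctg
Myog held CACATG at -138 and CAGTTG at -12 from the start. Chrna1 held CAGCTG at -92 and -44 and CAGGTG between them at -73. Chrng held CAGCTG at -155 and -132 and CACATG at -75. Of 32851 promoters of the same length, 72.3% held CANNTG, 16.3% held CAGCTG and 1.90% held CAGCTG at least 2 times. Among the 8 members found in the promoter table, Chrna1 and Chrng were those with CAGCTG. A match is a description of the letters and does not show binding.

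Depth set the precision. Reads assigned to genes were 1138318, 31487255 and 5226493 in Null libraries 1 to 3 and 1283566, 161711 and 15529242 in WT libraries 1 to 3. A count of 3 reads stood at 2.76, 0.0951 and 0.590 CPM (reads relative to the TMM-scaled library size) in the Null libraries and at 2.34, 18.4 and 0.187 CPM in the WT libraries. A member below these floors could have few reads or none there, and a count of 0 does not show that it was absent. Fermt1, which encodes Kindlin-1, had 0, 2 and 2 reads in Null tumours and 16, 2 and 1040 reads in WT tumours. In WT library 2 it stood at 12.3 CPM, above the Null libraries (0, 0.0634 and 0.393 CPM) but below the floor of 18.4 CPM. Its 2 reads there are too few for a firm check of the label of that library. The other libraries matched their genotype labels. The log2 fold change of Fermt1 (Null minus WT throughout) was -8.18 (SE 0.89, adjusted p = 0.000297, edgeR's quasi-likelihood test). It was -6.75 or -8.99 when Null library 2 or 3 was left out and -6.57 without WT library 3. Of 11887 genes past the default expression filter 688 changed, 5.79% of those tested, with 419 lower (3.52%) and 269 higher (2.26%) in Null tumours, and the median log2 fold change was 0.01.

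Mature muscle genes were the context in which the members were read. Of 27 genes listed for mature skeletal muscle, 24 were tested, 19 fell in Null tumours and 0 rose, with a median log2 fold change of -3.18, against 0.01 over all genes tested, of which 3.52% fell. With mouse number as a random effect in limma, 9 fell. Their summed level was 197, 217 and 141 CPM in Null libraries 1 to 3 and 2045, 1112 and 820 CPM in WT libraries 1 to 3. Eno3, which did not pass, gave 73.7, 53.7 and 75.5 CPM of the Null sums and 131, 98.3 and 80.8 CPM of the WT sums. Des, the intermediate filament gene of muscle, averaged 14.0 ± 3.38 CPM in Null and 172 ± 92.1 CPM in WT tumours (SD, n = 3 each; log2 fold change -3.61, adjusted p = 0.000230, edgeR). In bulk RNA, fewer muscle cells and less RNA per muscle cell cannot be told apart, here or for any member below.

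No member passed the test between Null and WT tumours. In the filtered fit only Mef2c was tested and it did not pass, at an unadjusted p above 0.05 as well, where 5.79% of genes changed. The 7 other members with reads lay under the filter and were fitted without one, where 842 of 22312 genes changed (3.77%) and 0 of the 8 members with reads did. Of the 8, 6 had an unadjusted p under 0.05 with a lower value in Null tumours, against 11.1% of all genes fitted, and 8 had a log2 fold change below 0, against 48.1%. In DESeq2 the same 8 gave 0 with an unadjusted p under 0.05, and in limma with mouse number as a random effect and no filter they gave 6. The share over all genes is not given for either fit. The median over the 7 members under the filter was -2.94, against 0.05 over all genes fitted. Whether the groups of the 7 overlap is fixed by depth, since WT library 2 would have held only 0.0610 to 0.518 reads of any of them at the level of WT library 3 and had 0.

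**Figure D1:**
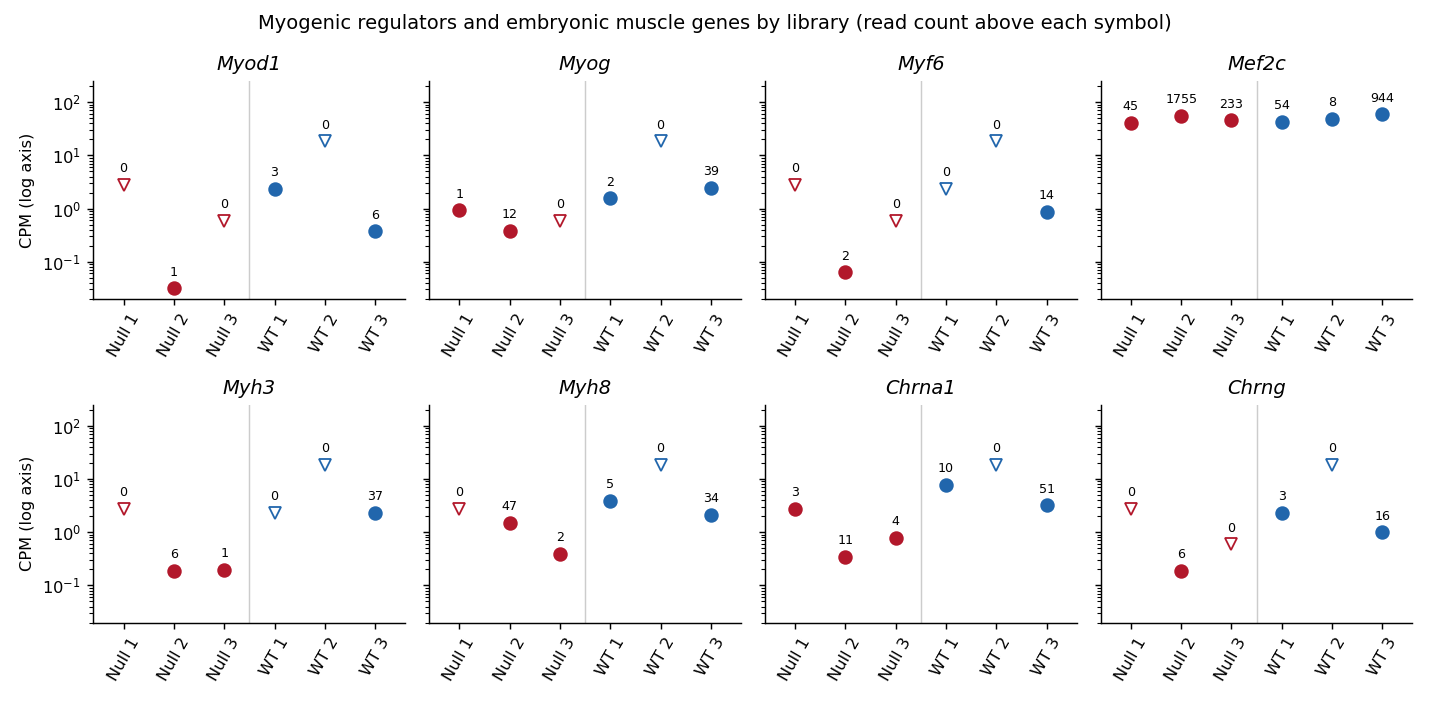
Level of the 8 members with reads in each library, Kindlin-1 Null (red) left of Kindlin-1 WT (blue), in CPM on a log axis, with the read count above each symbol; an open triangle stands at the floor of 3 reads of a library with 0 reads. Mef2c sits between 41.5 and 58.9 CPM in all 6 libraries, and the filled symbols of the other members stay at or below 7.81 CPM.

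Pax7 (ENSMUSG00000028736), which marks the satellite cell, and Myf5 (ENSMUSG00000000435), the earliest of the myogenic factors to be used in the embryo, had 0 reads in all 6 libraries. Over the pooled reads of each group, 0 reads allow up to 0.0795 CPM in Null tumours and up to 0.172 CPM in WT tumours. Neither gene was therefore detected in either genotype at this depth, and no fold can be given.

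Myod1 (ENSMUSG00000009471), a determination factor that commits cells to muscle, had 0, 1 and 0 reads in Null libraries 1 to 3 and 3, 0 and 6 reads in WT libraries 1 to 3. The reads were few in both groups. The ranges overlapped only through the 0 of WT library 2, which would have held 0.0610 reads at the level of WT library 3. The pooled Null level was 0.0515 of the pooled WT level (95% exact Poisson interval of the ratio 0.00117 to 0.371), from 1 read against 9. Such ratio intervals, here and for the members below, cover counting error and not the spread between libraries. The log2 fold change was -4.69 (SE 1.51, adjusted p = 0.0732, edgeR without a filter).

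Myog (ENSMUSG00000026459), which drives myoblasts into differentiation, had the most reads of the 4 myogenic factors. It had 1, 12 and 0 reads (0.921, 0.380 and 0 CPM) in Null libraries 1 to 3 and 2, 0 and 39 reads (1.56, 0 and 2.43 CPM) in WT libraries 1 to 3. WT library 3 stood highest. The groups overlapped only through WT library 2, which had 0 reads and would have held 0.396 at the level of WT library 3. At the level of WT library 3, Null library 2 would have held 76.8 reads and Null library 3 12.4 reads, against 12 and 0 observed. The pooled ratio of Null to WT was 0.147 (0.0722 to 0.280), and the log2 fold change was -2.59 (SE 1.03, adjusted p = 0.152, edgeR without a filter). Without WT library 3 the ratio was 0.249 (0.0563 to 2.27), an interval that holds 1.

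Myf6 (ENSMUSG00000035923), the factor of mature fibres also called MRF4, had 0, 2 and 0 reads in Null libraries 1 to 3 and 0, 0 and 14 reads in WT libraries 1 to 3. All WT reads came from WT library 3, and without it no WT read was left against 2 Null reads. The log2 fold change was -3.36 (SE 1.39, adjusted p = 0.168, edgeR without a filter).

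Mef2c (ENSMUSG00000005583), a MADS-box factor that works with the myogenic factors and is also used in blood vessels, heart and some immune cells, gave a different picture. Its level was 41.5, 55.6 and 45.8 CPM in Null libraries 1 to 3 and 42.2, 49.1 and 58.9 CPM in WT libraries 1 to 3, so the ranges overlapped over most of their length. The mean was 47.6 ± 7.26 CPM in Null and 50.1 ± 8.41 CPM in WT tumours (SD, n = 3 each). The log2 fold change was -0.08 (SE 0.26, adjusted p = 0.870, edgeR), and 2 SE either side reached from 0.662 to 1.34 times the WT level. On the log2 scale the mature muscle genes had a median of -3.18, below that range. Without WT library 3 the log2 fold change was 0.14, the other sign.

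Among other cells that use Mef2c, the 5 endothelial markers summed to 169, 141 and 145 CPM in Null libraries and 144, 172 and 101 CPM in WT libraries, with 0 of 5 passing the test. The 4 macrophage markers summed to 1053, 1269 and 1266 CPM in Null libraries and 1345, 1229 and 847 CPM in WT libraries, with 0 of 4 passing. The part of these cells in the Mef2c level was not tested. The 3 genes whose log2 CPM followed Mef2c most closely over the 6 libraries were Phf8 (Pearson r 0.982), Aspm (0.978) and A530032D15Rik (0.976). The r values rest on 6 libraries that differ in depth and are a description.

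The related factors did not pass either. Mef2a stood at 184, 165 and 183 CPM in Null libraries and 255, 209 and 214 CPM in WT libraries (log2 fold change -0.36, SE 0.24, adjusted p = 0.358, edgeR). Mef2d stood at 63.6, 85.9 and 87.7 CPM in Null libraries and 105, 129 and 133 CPM in WT libraries (-0.61, SE 0.24, adjusted p = 0.144, edgeR). In both, every Null value lay below every WT value, as for 14.3% of the genes tested. Of the 15 listed partners and inhibitors of the myogenic factors, which include these MEF2 genes, the E proteins Tcf3, Tcf4 and Tcf12 and the Id and Twist inhibitors, 13 were tested and 0 passed in either direction. Their median log2 fold change was 0.12, with a range from -0.61 to 1.03.

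**Figure D2:**
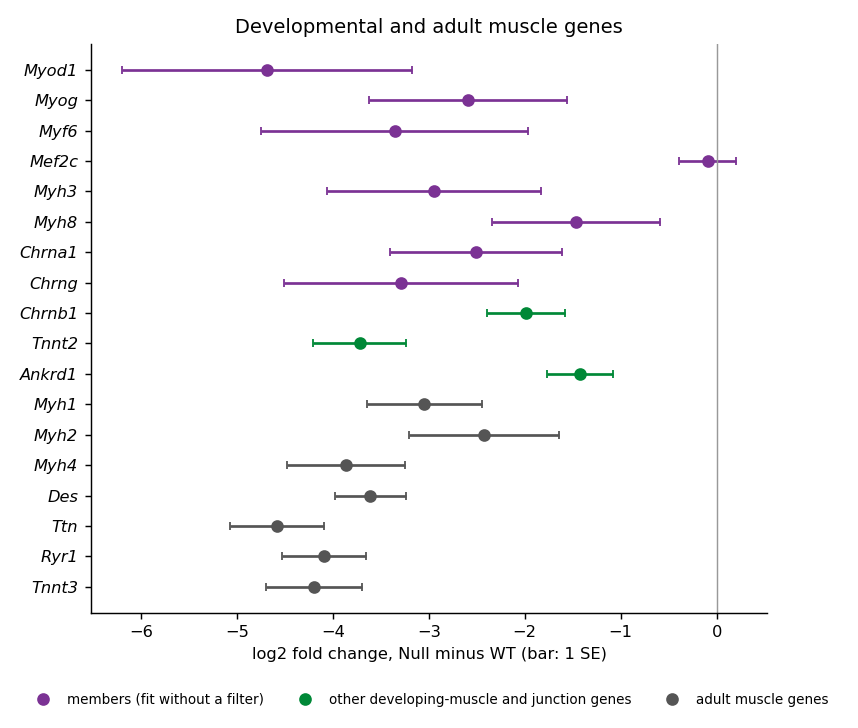
Log2 fold change, Null minus WT, with bars of 1 SE, of the members in the fit without a filter (purple), of other developing-muscle and junction genes (green) and of adult muscle genes (grey) in the filtered fit. Mef2c lies at -0.09, the sparse members lie between -1.47 and -4.69 with wide errors, and Myh4, Myh1 and Chrnb1 lie at -3.86, -3.05 and -1.99.

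Myh3 (ENSMUSG00000020908), the embryonic myosin heavy chain, had 0, 6 and 1 reads in Null libraries 1 to 3 and 0, 0 and 37 reads in WT libraries 1 to 3. All WT reads lay in WT library 3, so the WT level of Myh3 rests on 1 library. At the level of that library Null library 2 would have held 72.9 reads and Null library 3 11.7, against 6 and 1 observed. WT library 2 would have held 0.376 reads at that level, too few for its 0 to be read. The pooled ratio was 0.0876 (0.0330 to 0.199), and the log2 fold change was -2.94 (SE 1.12, adjusted p = 0.129, edgeR without a filter). Without WT library 1 it was -3.47 and passed (adjusted p = 0.0425).

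Myh8 (ENSMUSG00000055775), the perinatal myosin, had 0, 47 and 2 reads (0, 1.49 and 0.393 CPM) in Null libraries 1 to 3 and 5, 0 and 34 reads (3.90, 0 and 2.12 CPM) in WT libraries 1 to 3. Null library 2 held nearly all Null reads. The pooled ratio was 0.582 (0.374 to 0.910), nearer to 1 than for any sparse member, and the log2 fold change was -1.47 (SE 0.87, adjusted p = 0.359, edgeR without a filter). Without Null library 2 the ratio was 0.145 (0.0170 to 0.561) and the log2 fold change -2.99. That library also held cardiac reads: Myh6, the heart myosin, had 0, 204 and 0 reads in Null libraries and 0, 0 and 0 in WT libraries, and Myl7 had 8 reads, all there. The other cardiac markers Nppa, Nppb and Tnni3 had reads in both groups, and the 1 tested, Tnni3, did not pass. Their part in the Myh8 reads was not tested.

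The adult myosins gave the comparison. Myh4, the fast glycolytic fibre type, stood at 0.921, 6.50 and 0.787 CPM in Null libraries and 81.2, 67.6 and 30.1 CPM in WT libraries. The groups did not overlap, as for 14.3% of the genes tested, and Myh4 fell (log2 fold change -3.86, SE 0.62, adjusted p = 0.00436, edgeR). Without Null library 2 the value was -6.09, and the call was lost in limma with a random effect of mouse number (-2.74, adjusted p = 0.117). Myh1, also a fast myosin, stood at 0, 4.28 and 2.36 CPM in Null libraries and 44.5, 12.3 and 14.3 CPM in WT libraries and fell (-3.05, SE 0.60, adjusted p = 0.0129, edgeR), with -3.85 without Null library 2 and -2.19 without WT library 1. Its call too was lost with the random effect (-2.47, adjusted p = 0.0605, limma). Myh2 stood at 0, 1.90 and 0.590 CPM in Null libraries and 10.2, 18.4 and 3.31 CPM in WT libraries and did not pass (-2.43, SE 0.78, adjusted p = 0.0821, edgeR). Myh7, the slow myosin, had 1 read in Null library 2 and no other.

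Within each library, the share of Myh3 and Myh8 in the reads of the 6 skeletal myosins does not depend on library size. It was 53 of 454 reads in Null library 2 (11.7%, 95% Clopper-Pearson interval 8.87 to 15.0) and 3 of 22 in Null library 3 (13.6%, 2.91 to 34.9), while Null library 1 had 1 myosin read in all, from Myh4. In WT tumours it was 5 of 179 in library 1 (2.79%, 0.913 to 6.40), 0 of 16 in library 2 (upper bound 20.6%) and 71 of 836 in library 3 (8.49%, 6.69 to 10.6). The intervals of Null library 2 and WT library 3 overlap, and those of Null library 2 and WT library 1 do not. The intervals of WT libraries 1 and 3 do not overlap either, so the shares differed among WT libraries as well. Myosin genes are close copies: of the 50-base windows of the longest coding transcript, 4.81% in Myh3 and 21.4% in Myh8 also occur in another myosin, so a part of the Myh8 reads may be split or dropped. Read length is not given in the sources used here, and 50 bases is an assumption.

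**Figure D3:**
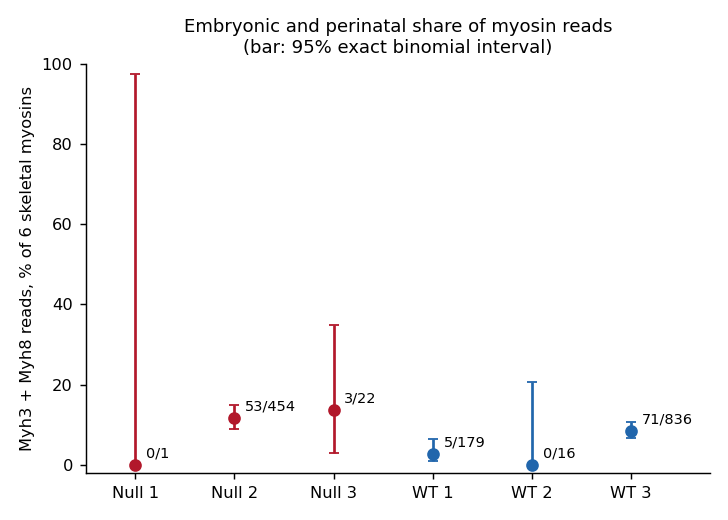
Share of Myh3 and Myh8 among the reads of 6 skeletal myosin heavy chains in each library, in percent, with 95% exact intervals, Null left of WT. Null library 2 sits at 11.7% and WT library 3 at 8.49%, and the interval of Null library 1 reaches to 97.5% because it rests on 1 read.

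Chrna1 (ENSMUSG00000027107), the ligand-binding alpha subunit of the muscle acetylcholine receptor, had 3, 11 and 4 reads (2.76, 0.349 and 0.787 CPM) in Null libraries 1 to 3 and 10, 0 and 51 reads (7.81, 0 and 3.18 CPM) in WT libraries 1 to 3. It was the one sparse member with reads in every Null library, and the groups overlapped through WT library 2, whose floor of 18.4 CPM lies above all other values. The pooled ratio of Null to WT was 0.137 (0.0760 to 0.234). The log2 fold change was -2.50 (SE 0.90, adjusted p = 0.109, edgeR without a filter). Chrna1 passed without Null library 1 (-3.14, adjusted p = 0.0173) and without WT library 2 (-2.68, adjusted p = 0.0459), and stood at -1.68 without Null library 2 and -1.85 without WT library 1. With mouse number as a random effect in limma it also passed (-3.09, adjusted p = 0.0437), and with libraries of a shared mouse number summed it did not (-2.46, adjusted p = 0.303, edgeR), nor with only the WT pair summed (0.0764).

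Chrng (ENSMUSG00000026253), the gamma subunit of the fetal receptor, had 0, 6 and 0 reads in Null libraries 1 to 3 and 3, 0 and 16 reads in WT libraries 1 to 3. All Null reads lay in library 2, where the level of WT library 3 would have given 31.5. The pooled ratio was 0.146 (0.0478 to 0.381), and the log2 fold change was -3.29 (SE 1.22, adjusted p = 0.123, edgeR without a filter). The adult counterpart Chrne had 0, 2 and 0 reads in Null and 0, 0 and 2 reads in WT libraries. Among the reads of the pair, Chrng had 6 of 8 in Null library 2 (75%, 34.9 to 96.8), 3 of 3 in WT library 1 (29.2 to 100%) and 16 of 18 in WT library 3 (88.9%, 65.3 to 98.6), and these intervals overlap.

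Other receptor and junction genes were measured beside them. Chrnb1, the beta subunit shared by both receptor forms, stood at 2.76, 3.74 and 3.74 CPM in Null libraries and 12.5, 6.14 and 17.1 CPM in WT libraries. The groups did not overlap, as for 14.3% of the genes tested. The value of WT library 2 rests on 1 read, below its floor of 18.4 CPM, and that of Null library 1 on 3 reads. Chrnb1 fell (log2 fold change -1.99, SE 0.41, adjusted p = 0.0163, edgeR) and was the 1 gene to pass among 4 tested of the 10 junction genes, whose median was -0.24. The call was lost without each Null library in turn (highest adjusted p 0.0780) and in DESeq2 (0.0772). Chrnd, the delta subunit, had 0, 5 and 0 reads in Null and 5, 0 and 9 reads in WT libraries (-3.77, SE 1.32, adjusted p = 0.102, edgeR without a filter).

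Per kilobase of transcript, the order of pooled levels put Mef2c first in both genotypes, at 8.59 CPM per kb in Null and 9.18 CPM per kb in WT tumours. By pooled reads, which are mostly those of Null library 2 and WT library 3, Myog came next, at 0.231 (95% exact Poisson interval 0.123 to 0.394) in Null and 1.57 (1.13 to 2.13) in WT tumours. Chrna1 stood at 0.109 (0.0645 to 0.172) in Null and 0.796 (0.609 to 1.02) in WT tumours. In Null tumours Myh8 lay between them at 0.211 (0.156 to 0.279), not distinguishable from Myog. Within libraries this order was not constant. Chrna1 stood above Myog in Null library 1 (0.630 against 0.616 CPM per kb, from 3 reads against 1) and Null library 3 (0.179 against 0, from 4 reads against 0). It also did in WT library 1 (1.78 against 1.04, from 10 reads against 2). These counts are too few to order the pair within a library. Chrna1 stood below Myog in Null library 2 and WT library 3. In the pooled WT reads Myf6 at 0.635 (0.347 to 1.06), Chrng at 0.391, Myh8 at 0.363, Myh3 at 0.351 and Myod1 at 0.277 followed, with neighbours in this order not separated by their counting intervals. In Null tumours Chrng at 0.0572, Myf6 at 0.0420, Myh3 at 0.0308 and Myod1 at 0.0142 closed the list, again with neighbours not separated. These intervals cover counting error and not the spread between libraries.

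Further genes of the programme were read from lists. Of 14 further satellite cell and myoblast genes 7 were tested, 0 fell and 2 rose, against 3.52% and 2.26% of all genes tested, with a median of -0.72 against 0.01. Sdc4, a cell surface proteoglycan of satellite cells that many other cells use, averaged 434 ± 97.0 CPM in Null and 205 ± 28.3 CPM in WT tumours (SD, n = 3 each; log2 fold change 1.06, adjusted p = 0.0395, edgeR). Eya1, a coactivator of homeodomain factors in muscle precursors, averaged 73.5 ± 5.01 CPM in Null and 32.5 ± 6.91 CPM in WT tumours (1.06, adjusted p = 0.0283, edgeR). The Sdc4 call was lost in 5 of 6 fits that left out 1 library (highest adjusted p 0.135), the Eya1 call in 4 of 6 (0.103), and both were lost with the libraries of a shared mouse number summed (0.191 and 0.124). Of 9 fusion and developing-muscle genes 5 were tested, 2 fell and 0 rose, against the same background, with a median of -1.42. Tnnt2, the cardiac troponin T that developing skeletal muscle also uses, averaged 2.50 ± 2.51 CPM in Null and 45.4 ± 7.56 CPM in WT tumours (-3.72, SE 0.49, adjusted p = 0.00121, edgeR) and kept its call in all 6 such fits, with -5.32 without Null library 2. Ankrd1, a stress-responsive ankyrin repeat gene of muscle, averaged 8.21 ± 1.54 CPM in Null and 20.0 ± 7.94 CPM in WT tumours (-1.42, SE 0.35, adjusted p = 0.0329, edgeR), and its call was lost in 4 of 6. The fusion genes Mymk and Mymx lay under the filter: Mymk had 0, 4 and 0 reads in Null and 0, 0 and 12 in WT libraries, and Mymx had 0, 2 and 0 in Null and 1, 0 and 8 in WT libraries.

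Among mature muscle genes the 4 with the lowest adjusted p were Des, Ttn, Ryr1 and Tnnt3. Ttn, the giant sarcomere spring, had a log2 fold change of -4.58 (SE 0.49, adjusted p = 0.000289, edgeR), and -5.69 without Null library 2. Ryr1, the calcium release channel of the sarcoplasmic reticulum, averaged 2.58 ± 1.28 CPM in Null and 43.8 ± 12.0 CPM in WT tumours (-4.09). Tnnt3, fast troponin T, averaged 6.86 ± 4.16 CPM in Null and 132 ± 55.3 CPM in WT tumours (-4.20, and -5.08 without Null library 2), and its call was lost with the random effect (adjusted p = 0.0518, limma).

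Read against the mature muscle reads of the same library, a measure chosen after the values were seen, the sparse members overlapped between the groups. Eno3, a mature muscle gene that did not pass, gave 80 of 214, 1694 of 6861 and 384 of 716 of these reads in Null libraries. In WT libraries it gave 168 of 2619, 16 of 181 and 1294 of 13132. The mature muscle reads were therefore not of the same make-up in both groups. Myod1, Myog and Myf6 together had 4.67, 2.19 and 0 reads per 1000 mature muscle reads in Null libraries 1 to 3 and 1.91, 0 and 4.49 in WT libraries 1 to 3. Myh3 and Myh8 together had 0, 7.72 and 4.19 in Null libraries and 1.91, 0 and 5.41 in WT libraries. Chrna1 and Chrng together had 14.0, 2.48 and 5.59 in Null libraries and 4.96, 0 and 5.10 in WT libraries. All 3 sums overlapped between the groups, and the first value of each Null series rests on 214 mature muscle reads. The regulators had 1 read in Null library 1 (interval 0.118 to 26.0), and their 0 reads in Null library 3 allow up to 5.15. The 0 myosin reads in Null library 1 allow up to 17.2. WT library 2 rests on 181 mature muscle reads, and its 0 reads allow up to 20.4 per 1000, above every other value of the 3 sums. Its values therefore cannot be read, and the sums overlapped without them as well. With so few reads, the overlap does not show that the groups were alike. Between the deepest libraries, Null library 2 and WT library 3, the regulators and receptor genes stood lower in Null and the myosins higher. The exact Poisson intervals overlapped for all 3 sums, narrowly for the receptor genes (1.44 to 3.97 against 3.95 to 6.48). For the regulators the overlap was narrow as well. Their interval ended at 3.61 in Null library 2 and began at 3.42 in WT library 3. Overlap of such intervals does not show that these libraries were alike, and the difference between them was not tested. Mef2c had 210.3, 256 and 325 in Null libraries and 20.6, 44.2 and 71.9 in WT libraries, without overlap. This gap follows from the measure and is not a separate result for Mef2c. Mef2c stood at 41.5 to 58.9 CPM in every library, while the mature muscle genes summed to 141 to 217 CPM in Null and 820 to 2045 CPM in WT libraries.

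**Figure D4:**
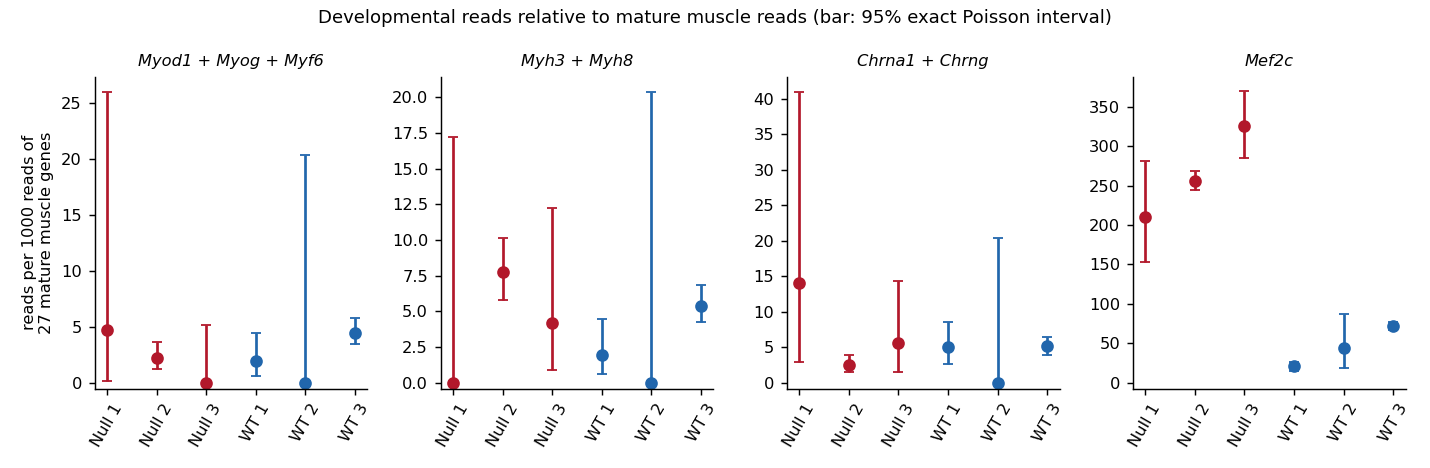
Reads of each member group per 1000 reads of mature skeletal muscle genes, by library, Null (red) left of WT (blue), with 95% exact Poisson intervals as bars and a scale of its own in each panel. The regulators, the developmental myosins and the receptor genes overlap between genotypes, and Mef2c sits at 210.3 to 325 in Null and 20.6 to 71.9 in WT libraries. The Mef2c gap follows from the lower mature muscle reads in Null libraries, by which its similar levels are divided.

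Markers of several cell types differed between the groups. Of the 4 keratinocyte markers 2 were tested and 1 passed: Krt14 fell (log2 fold change -2.04, adjusted p = 0.0100, edgeR), and Trp63 stood at 0.53 (adjusted p = 0.461, edgeR). Without a filter Epcam stood at 1.48. Krt5, a defining gene of the labelled cell type, had 0, 5 and 2 reads in Null and 5, 0 and 5 in WT libraries, and the 4 markers summed to 37.8, 34.0 and 28.9 CPM in Null and 56.2, 55.3 and 48.7 CPM in WT libraries. Reads in no gene were 5.84, 5.55 and 4.63% of the listed reads in Null libraries and 7.15, 8.75 and 12.0% in WT libraries, without overlap. The 5 skeletal muscle markers Acta1, Ckm, Ttn, Mylpf and Tnnt3 all fell and summed to 52.5, 73.5 and 22.4 CPM in Null and 932, 504 and 347 CPM in WT libraries. All of them are among the mature muscle genes counted above, so their fall is no separate result. The 3 tested smooth muscle markers gave no call, and the list summed to 262, 373 and 392 CPM in Null and 509, 473 and 163 CPM in WT libraries. Of 4 fibroblast markers tested 1 rose (Lum, 2.92), and of 2 adipocyte markers tested 1 fell (Cfd, -4.69). The part of these cells and of the reads outside genes in the values of the members was not tested.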

How the data were processed

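RNA sequencing of 6 tumour libraries was used. The deposited files hold raw read counts per Ensembl gene, 1 file per library, which the authors had not normalized. Per the submitters' processing notes, TopHat2, Cuffdiff, DESeq2 and the build mm9 were named, without roles. The counting program, annotation and use of strand were not given in the sources used here. Symbols, transcript lengths and exon overlaps came from GENCODE M21, a later build, where 32919 of 37991 identifiers (86.6%) matched. No member shares exon bases with another annotated gene. Reads in no gene (4.63 to 12.0% of the listed reads) and reads with several alignments (32.9 to 40.0%) stayed out of library sizes.

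Counts were tested in R 4.3.3 with edgeR 4.0.16 (quasi-likelihood, robust, TMM, default filter, no covariate) and Benjamini-Hochberg adjustment over all genes tested at 0.05. Members under the filter were fitted without it. Alternatives were RLE scaling, no filter, a filter of 10 CPM in 3 libraries, DESeq2 1.42.0, limma 3.58.1 with mouse number as a random effect, libraries of a shared mouse number summed, and leaving out each library. The fits were tested on simulated data. Pooled reads carry 95% exact Poisson intervals, and shares carry Clopper-Pearson intervals. Intervals and floors of 3 reads cover counting error only. CPM are given as mean ± SD. For single values an exact permutation test of 3 against 3 cannot go below p = 0.1.

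All 10 members, Fermt1, the adult counterparts, and from each list the genes that passed (all where 5 or fewer, otherwise the 4 with the lowest adjusted p) are named, with the 3 genes most correlated with each tested member. Marker genes and genes with few reads named besides were chosen after their values were seen. The members and lists were chosen with earlier results of these data known. Some marker results are not reported here.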

Additional observations from a re-analysis of the deposited data

How the results depend on the processing

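No paired analysis was possible because no mouse number occurs in both groups. The labels give no replicate numbers, and those used here only follow the order of deposit. The summed WT pair and the repeats of each alternative without a filter were chosen after seeing the data. The count of genes changed was 1156 with mouse number as a random effect (641 higher and 515 lower, against 269 and 419), where the mouse number had a correlation of 0.51, and 179 to 855 with 1 library left out (281 without WT library 3, 179 without Null library 1, 225 without Null library 3). Members passing without a filter numbered 1 with the random effect (Chrna1, -3.09), 0 with shared mouse numbers summed (Chrna1 adjusted p = 0.303, edgeR) and 0 to 1 with 1 library left out. In DESeq2 0 of 8 members passed, 6 had no adjusted p, and 0 had an unadjusted p under 0.05, against 6 with the random effect and no filter. Log2 fold changes with 1 library left out were -3.47 to -2.86 for Myh3, -3.14 to -1.68 for Chrna1 (-2.68 without WT library 2), -2.99 to -1.08 for Myh8, -3.13 to -1.89 for Myog, -5.47 to -3.40 for Myod1 and -0.24 to 0.14 for Mef2c, which reversed without WT library 3 (0.14). Satellite cell and myoblast genes that rose numbered 0 with shared mouse numbers summed, 0 with only the WT pair summed and 0 to 1 with 1 library left out. Fusion and developing-muscle genes that fell numbered 1 in DESeq2, 1 with shared numbers summed, 4 with the random effect (Myl4 and Tnni1 added) and 1 to 2 with 1 library left out. Among partners and inhibitors 1 rose with the random effect (Twist1, 1.36, adjusted p = 0.0349, limma) and 0 with shared mouse numbers summed. Junction genes that fell numbered 0 in DESeq2, 0 under the stricter filter and 0 to 1 with 1 library left out. Mature muscle genes that fell numbered 9 with the random effect, where Myh1, Myh4 and Tnnt3 lost their calls (adjusted p 0.0605, 0.117 and 0.0518, limma), and 13 to 18 with 1 library left out. With Myh4 as the only adult myosin the share of Myh3 and Myh8 was 20.5% in Null library 2, 42.9% in Null library 3 and 12.8% in WT library 3. The cause of these changes was not tested. Depth limits the sparse members: WT library 2 could not show any of them at the level of WT library 3.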
